A study of Mus musculus with 13 samples.

Results

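Small nucleolar RNAs (snoRNAs), small Cajal body RNAs (scaRNAs) and the noncoding genes that host them were examined in common lymphoid progenitors (CLPs), the bone marrow cells that give rise to B cells, NK cells and T cells. Members were taken by gene symbol: every gene named Snhg, Snord, Snora or Scarna followed by a digit, and Gas5. This gave 136 of the 24972 genes in the tables, namely 17 host genes (16 Snhg genes and Gas5), 74 Snord, 36 Snora and 9 Scarna genes. Their levels were read in 13 libraries, 1 per mouse, from C57BL/6 mice aged 6 to 12 weeks. WT mice carried no Notch1 mutation (5 libraries, numbered 1, 2, 3, 10 and 11), Notch1+/- mice kept 1 functional allele (5 libraries, 4, 5, 6, 12 and 13), and Notch1+/dTAD mice carried 1 allele without the transactivation domain beside a normal allele (3 libraries, 7, 9 and 14). The study set the 2 mutants side by side to separate the loss of an allele from interference by a receptor that binds its sites without recruiting coactivators. CLPs were sorted as DAPI-/Lin-/Sca1Lo/cKitLo/CD127+/CD135+ cells, and 3′ ends of polyadenylated RNA were sequenced after oligo-dT priming from a very small RNA input.

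Box C/D snoRNAs (the Snord genes) guide ribose methylation, and box H/ACA snoRNAs (the Snora genes) guide pseudouridylation, mostly of ribosomal RNA. ScaRNAs do the same for spliceosomal RNAs in Cajal bodies. Most are cut out of introns, end without a poly(A) tail and are very short, whereas the spliced transcripts of their host genes are polyadenylated. Many noncoding host transcripts start with a run of pyrimidines, as ribosomal protein mRNAs do, and are broken down by nonsense-mediated decay when translated.

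Of the 119 snoRNA and scaRNA genes, 8 were above 0 in any library. The annotated sequences of 3 of those with the highest levels are shown (GENCODE M21, GRCm38, 5′ to 3′). The annotation behind the TPM is not given, and the RefSeq entries of Snord89 (94 bases) and Snora81 (164 bases) are shorter. Capitals mark TGATGA, the usual form of box C, and CTGA, box D. Snord89 lies at chr1:39548745-39548854 on the minus strand, in an intron of Gm15832. Snord15a lies at chr7:99482785-99482932 (minus) in an intron of Rps3, and Snora81 lies at chr16:23110756-23110933 (plus), overlapping an exon of Eif4a2.
Snord89: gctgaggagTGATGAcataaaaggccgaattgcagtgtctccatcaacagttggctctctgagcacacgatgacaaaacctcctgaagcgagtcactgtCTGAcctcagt
Snord15a: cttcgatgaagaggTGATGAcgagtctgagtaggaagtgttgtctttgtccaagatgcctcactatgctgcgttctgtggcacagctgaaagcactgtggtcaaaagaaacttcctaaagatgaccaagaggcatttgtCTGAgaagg
Snora81: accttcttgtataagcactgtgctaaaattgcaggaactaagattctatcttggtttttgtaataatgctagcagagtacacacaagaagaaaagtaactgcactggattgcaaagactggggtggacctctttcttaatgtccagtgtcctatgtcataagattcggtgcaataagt

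All 5 Snord genes above 0 held both boxes, against TGATGA in 75.5% and CTGA within the last 20 bases in 98% of the 98 annotated Snord transcripts. The ACA that ends a box H/ACA snoRNA stood 3 bases from the end in 83.3% of 42 annotated Snora transcripts, including Snora26 and Snora70, but not in the annotated Snora81. The longest run of A within any of the 8 RNAs was 4 bases.

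The promoters of the host genes were searched for a C at the start followed by 4 pyrimidines (each C or T), the form of a terminal oligopyrimidine start. This form was present in 3 of 17 RefSeq promoters of host genes (17.6%, over 15 genes) and in 2.51% of all 32851 promoters. The first 30 bases of these 3, of the most abundant host gene, Snhg9, and of Snhg20 are shown from RefSeq on GRCm38.p6, with the leading pyrimidines in capitals.
Gas5 (second start), chr1:161035166-161035195, plus: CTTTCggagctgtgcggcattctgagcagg
Snhg7, chr2:26640215-26640244, minus: CTCTCggcagccatggcggctctatgtttg
Snhg8, chr3:123508307-123508336, minus: CTCTTTggctgcgatccgcctacgagtatg
Snhg9, chr17:24719936-24719965, minus: gccgaagccgcgccctacaccagccggaag
Snhg20, chr11:117076783-117076812, plus: gaagtgcatttgcagagctggttccgccgg

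TPM (transcript abundance per length and library) summed to 1000000 in each library, so the members' share can be read directly. In WT the members held 5.58%, 6.10%, 9.04%, 8.88% and 6.19% of all TPM in libraries 1, 2, 3, 10 and 11. In Notch1+/- they held 2.61%, 3.00%, 12.9%, 7.33% and 6.62% in libraries 4, 5, 6, 12 and 13. In Notch1+/dTAD the shares were 4.56%, 4.37% and 4.02% in libraries 7, 9 and 14. The 3 Notch1+/dTAD shares were thus close together and below all 5 WT shares, while the Notch1+/- shares lay on both sides of the other groups. The group medians were 6.19%, 6.62% and 4.37%, and as a sum over chosen genes the share was not tested. Libraries numbered 1 to 9 and 10 to 14 each held all genotypes. Within the first range the WT shares were 5.58% to 9.04% and those of Notch1+/dTAD 4.37% to 4.56%, and within the second 6.19% to 8.88% and 4.02%, an order that already follows from the lack of overlap over all libraries.

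**Figure D1:**
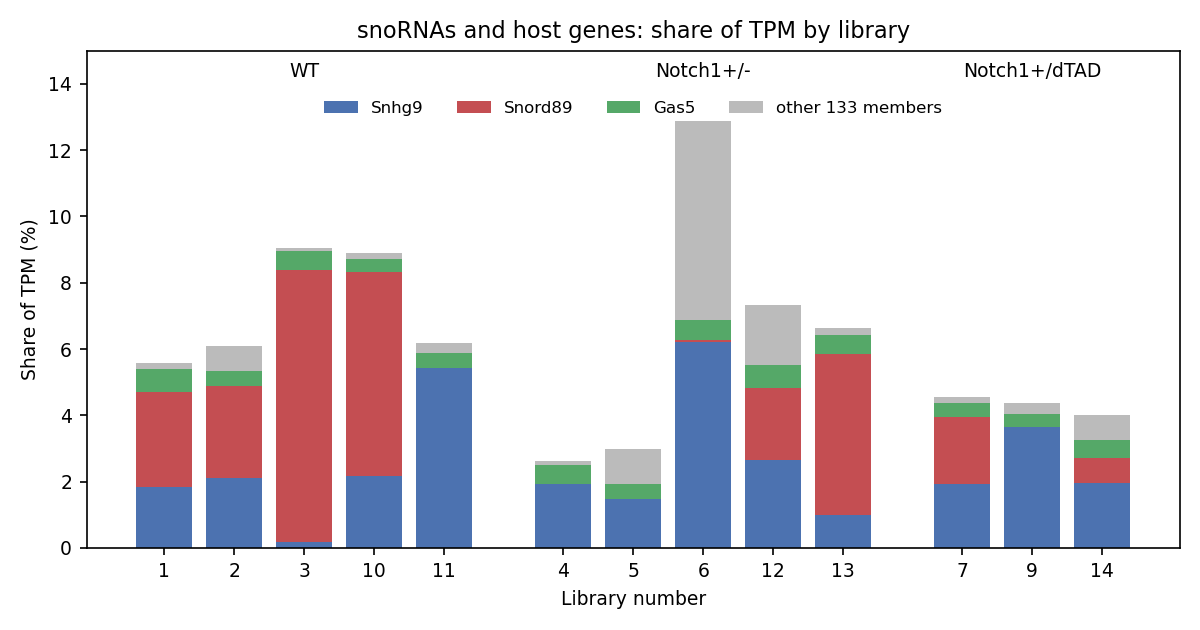
Share of TPM (%, linear axis from 0) held by the 136 members in each of the 13 libraries, as stacked bars for Snhg9, Snord89, Gas5 and the other 133 members. Snord89 supplied most of the share in WT libraries 3 and 10 and Snhg9 in WT library 11, while Gas5 was a thin band of similar height in every library.

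Snhg9 and Snord89 together held most of this share in every library but 5 and 6 of Notch1+/-, where the other members held 1.07% and 6.01% of TPM. Snhg9 held 0.161% to 6.21% of TPM, Snord89 held 0 to 8.24%, and Gas5 held 0.388% to 0.695%, which left 0.0976% to 6.01% for the other 133 members. Without Snord89 the difference in medians between Notch1+/dTAD and WT changed from -1.81 to 0.56 percentage points, and with the host genes alone it was -0.01. Without Snhg9 it was -1.92. TPM divides by gene length, and these genes were short: the median annotated exon length was 80.5 bases for Snord, 132 for Snora, 140 for Scarna and 1730 for host genes, with 183 for Snhg9. When each TPM was multiplied by its gene's exon length, the share was 0.962% to 1.25% in WT, 0.820% to 1.58% in Notch1+/- and 0.845% to 1.10% in Notch1+/dTAD, and the groups overlapped. These lengths count every annotated exon base, 3760 for Gas5 against 183 for Snhg9 and 110 for Snord89, so Gas5 weighs most in this share. The lengths that the authors divided by are not given in the sources used here.

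Detection differed between the classes. A value above 0 was listed for 12 of 17 host genes, 5 of 74 Snord, 3 of 36 Snora and none of 9 Scarna genes in at least 1 library, against 40.6% of all genes in the table. Of the 1547 snoRNA and scaRNA values, 18 were above 0 (1.16%), and of the 221 host gene values, 102 were (46.2%). The remaining 116 members were listed at 0 in every library. Between 5 and 13 members were above 0 in a library, and over all genes 3264 to 6326 were. A listed 0 does not show absence, since 3 of 8 genes that every cell uses were also at 0 in at least 1 library and the depth is unknown.

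**Figure D2:**
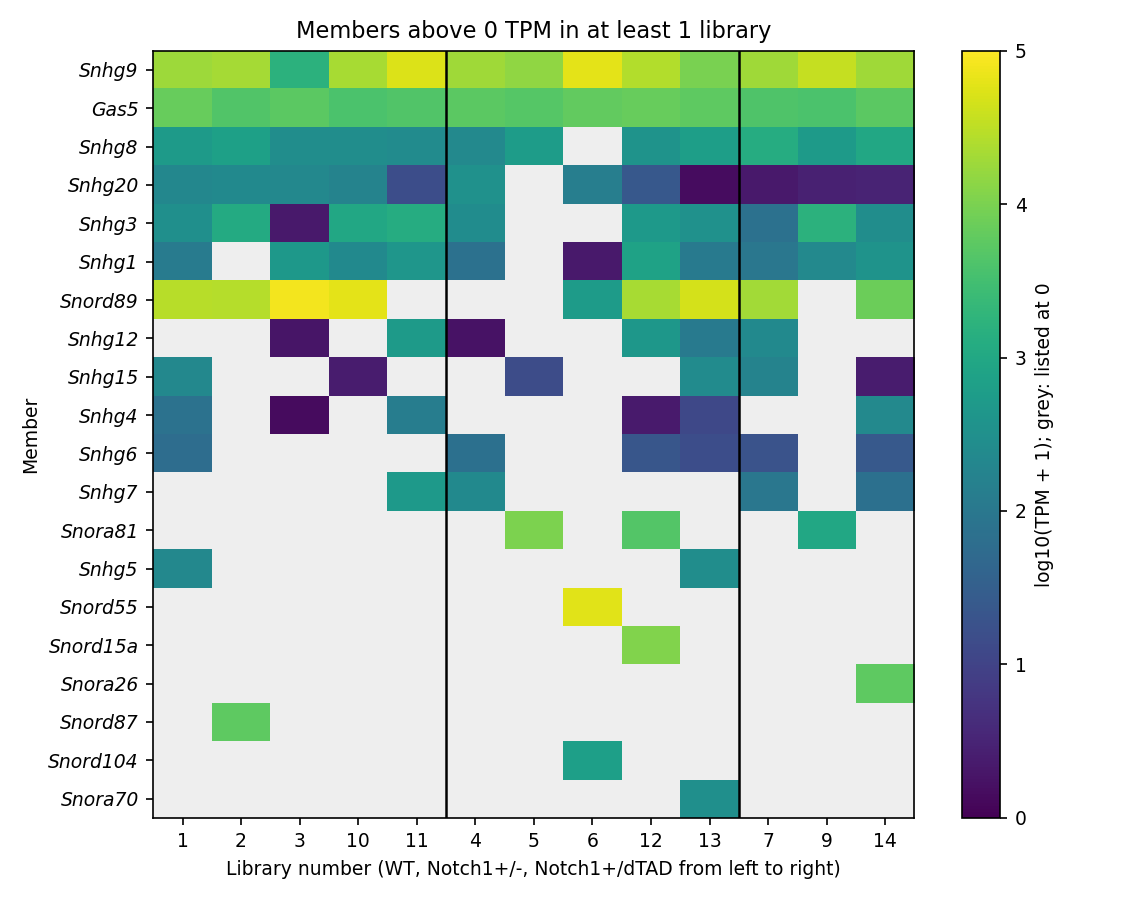
Level of the 20 members above 0 TPM in at least 1 library, as log10(TPM + 1) in each of the 13 libraries, with black lines between genotypes and grey for values listed at 0. Gas5 and Snhg9 were above 0 in every library, and 6 snoRNA genes were above 0 in 1 library each.

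Gas5 and Snhg9 were the only members above 0 in all 13 libraries. Gas5 (ENSMUSG00000053332.13, chr1:161034422-161038539, plus strand), a host gene with 10 annotated small RNAs within it on its strand and a transcript known to accumulate in growth-arrested cells, had a TPM of 6951, 4390, 5474, 3882 and 4401 in WT. Its TPM was 5510, 4702, 6193, 6911 and 5752 in Notch1+/- and 4269, 3893 and 5586 in Notch1+/dTAD. The groups overlapped, and the highest value was 1.79-fold the lowest. With an SD of 0.29 on the log2(TPM + 1) scale over all libraries, Gas5 ranked 9 from the smallest spread among the 772 genes above 0 in every library, whose median SD was 1.19. Zbtb37, which overlaps Gas5 on the opposite strand, was listed at 0 throughout.

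Snhg9 (ENSMUSG00000090101.1, chr17:24719531-24719965, minus strand), which contains Snora78, had the highest level of any gene in 3 libraries and was within the 5 highest in 11 of 13. Its TPM was 18372, 21201, 1611, 21750 and 54358 in WT, 19376, 14595, 62046, 26511 and 9861 in Notch1+/-, and 19164, 36412 and 19650 in Notch1+/dTAD. All Notch1+/dTAD values lay within the range of WT, and WT library 3 was the lowest, at rank 110 of that library. The highest value was 38.5-fold the lowest, and the SD was 1.29 on the log2(TPM + 1) scale. Snhg9 overlaps Rps2, a ribosomal protein gene on the opposite strand that was listed at 33.4 to 984.1 TPM, and it is not stated whether reads were counted by strand.

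Snord89 was the only box C/D member above 0 in more than 1 library. Its TPM was 28781, 27689, 82370, 61536 and 0 in WT, 0, 0, 559.9, 21807 and 48551 in Notch1+/-, and 20253, 0 and 7385 in Notch1+/dTAD. It was the most abundant gene of the table in libraries 3, 10 and 13 and at 0 in libraries 11, 4, 5 and 9, so each genotype held both high values and zeros. Its annotated host, Gm15832, has no row in the tables used here.

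Snora81 was the only box H/ACA member above 0 in more than 1 library, with a TPM of 10090 in library 5, 4625 in library 12 (both Notch1+/-) and 1015 in Notch1+/dTAD library 9. Eif4a2, the helicase gene it overlaps, was at 0, 74.18 and 186.6 TPM in the same libraries. The other 6 snoRNA genes above 0 were each seen in 1 library. Snord55 reached 59351 TPM in Notch1+/- library 6, where it alone made up most of what Snhg9, Snord89 and Gas5 left of the members' share. Snord15a was at 11340 in Notch1+/- library 12, Snora26 at 5636 in Notch1+/dTAD library 14, Snord87 at 5633 in WT library 2, Snord104 at 653.2 in Notch1+/- library 6 and Snora70 at 302.4 TPM in Notch1+/- library 13.

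Members with an abundant host gene were listed at 0 about as often as the snoRNA and scaRNA members as a whole, of which 111 of 119 were at 0 in every library. By the first host listed for each, 109 snoRNA and scaRNA members lie within a gene of the table on the same strand, and 80 such hosts were found. Snord68 was not counted, since its first host, Gm20388, has no row, and Rpl13, which also contains it, was not looked up. For 56 of the 109 members the host was above 0 in all 13 libraries, and 53 of the 56 were themselves at 0 throughout. For 39 the host had a median of at least 1000 TPM, and 36 of the 39 were at 0 throughout. Snora21, for example, was at 0 in every library while its host Rpl23 had a median of 7913 TPM. Conversely, Snord87 was above 0 in library 2 although its host Snhg6 was at 0 there, and Snora26 in library 14 although its host Dancr was at 0.

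The host genes below Gas5 and Snhg9 varied more widely. Snhg8 (chr3:123507552-123508404, minus), which holds Snora24, had a TPM of 534.3, 696.5, 281.2, 275.9 and 257.4 in WT. It was at 223.1, 570.8, 0, 364.8 and 628.9 TPM in Notch1+/- and at 1264, 529.6 and 1006 in Notch1+/dTAD. Thus 2 of the 3 Notch1+/dTAD values were above every WT value, and the third was within the WT range. Snhg3 (chr4:132348014-132353686, minus), the host of Snora73a and Snora73b, was at 308.2, 1137, 1.246, 974.4 and 1257 TPM in WT, 271.7, 0, 0, 475 and 337.8 in Notch1+/-, and 71.48, 1655 and 279.9 in Notch1+/dTAD. Every Notch1+/- value of Snhg3 was below the WT median of 974.4, yet the groups overlapped. Snhg3 shares its strand and place with Rcc1, a nuclear exchange factor gene listed at 0 to 479.6 TPM, so reads between them are uncertain.

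Snhg1 (chr19:8723475-8726443, plus), with 8 annotated snoRNAs on its strand, was at 119.5, 0, 472.8, 236.3 and 415 TPM in WT. In Notch1+/- it was at 70.75, 0, 1.239, 773.2 and 107 TPM, and in Notch1+/dTAD at 92.96, 222.2 and 365.1. The Notch1+/- group held both the highest value and a 0, and the groups overlapped. The remaining host genes were at 0 in most libraries: Snhg12, Snhg15, Snhg4 and Snhg6 were above 0 in 6 libraries each, Snhg7 in 4 and Snhg5 in 2, with highest values from 69.11 TPM (Snhg6, library 4) to 537.8 TPM (Snhg12, library 11). Snhg10, Snhg11, Snhg14, Snhg17 and Snhg18 were at 0 in every library.

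Snhg20 (ENSMUSG00000086859.4, chr11:117076008-117078955, plus strand), a long intergenic noncoding RNA gene with 1 annotated snoRNA (Gm26083) on its strand, was the one member whose Notch1+/dTAD and WT values did not overlap. Its TPM was 205.8, 230.1, 219.5, 169.3 and 13.92 in WT. It was at 338.8, 0, 134.5, 23.29 and 0.4746 TPM in Notch1+/- and at 1.223, 1.901 and 2.205 in Notch1+/dTAD. All 3 Notch1+/dTAD values were therefore below the lowest WT value. Of all genes tested in this comparison, 0.739% were lower and 2.39% higher in Notch1+/dTAD without overlap. The Snhg20 values of Notch1+/- spread from 0 to above the highest WT value. By library number, the values were 205.8 to 230.1 in WT and 1.223 to 1.901 in Notch1+/dTAD for libraries 1 to 9, and 13.92 to 169.3 and 2.205 for libraries 10 to 14, in an order fixed by the lack of overlap over all libraries. In bulk RNA, fewer cells of a type and less RNA per cell cannot be told apart.

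**Figure D3:**
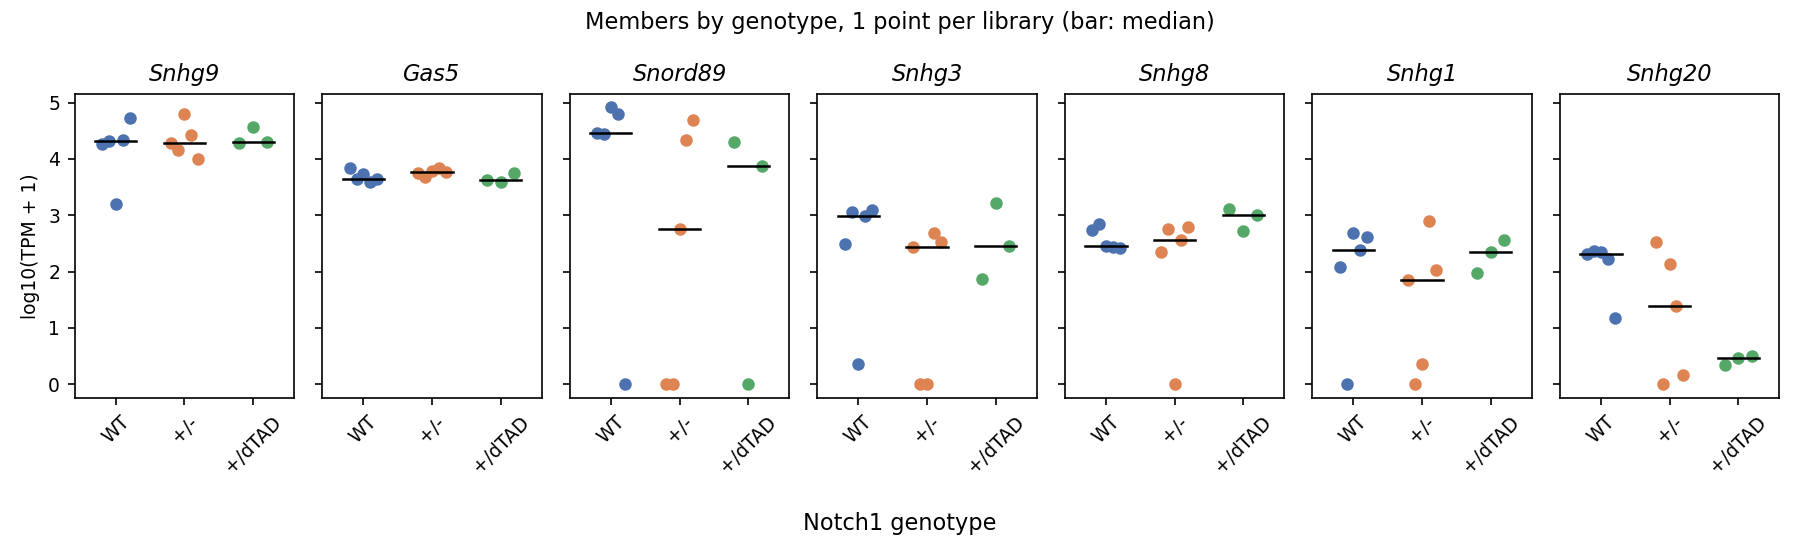
Level of 7 members as log10(TPM + 1) by Notch1 genotype, with 1 point per library and a bar at the median of each group. Snhg20 is the panel in which the 3 Notch1+/dTAD points lie below every WT point, as 0.739% of all genes tested did. Gas5 has the tightest points.

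Tests were run across all genes on log2(TPM + 1) with limma, with Benjamini-Hochberg adjustment over every gene tested and a threshold of 0.05. Between Notch1+/dTAD and WT, 4737 genes had at least 1 TPM in 3 libraries, and 0% of them were called at that threshold (237, or 5%, had an unadjusted p under 0.05). Of the 136 members, 11 were tested and none was called. One member, Snhg20, had an unadjusted p under 0.05. Of all genes tested, 0.739% were lower and 2.39% higher in Notch1+/dTAD without overlap. The median log2 fold change was 0.68 over the 11 members and 0.47 over all genes tested, so the members' values should be read against that shift.

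Snhg20 was lower in Notch1+/dTAD by a log2 fold change of -5.47 (SE 1.52, 95% confidence interval -8.74 to -2.21, 3 against 5 libraries), which did not pass the adjustment (limma, adjusted p = 0.418). It ranked 32 by p among all genes tested. The exact 2-sided permutation test gave p = 0.0179, the smallest that 56 permutations allow, and 0.791 after adjustment over all genes. Over the alternatives the log2 fold change of Snhg20 ranged from -6.33 to -3.56, the latter with a pseudocount of 10, and the adjusted p from 0.157 to 0.922. Snhg8 was next by p among the members (log2 fold change 1.22, SE 0.62, 95% confidence interval -0.11 to 2.55, limma adjusted p = 0.952), with 3 of 3 libraries above the WT median. Gas5 had a narrow interval (log2 fold change -0.12, -0.66 to 0.43), and Snord89 a very wide one (-3.31, -10.87 to 4.25). Snhg9 had a log2 fold change of 0.68 (-0.97 to 2.33).

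Between Notch1+/- and WT, 3178 genes had at least 1 TPM in 5 libraries, and 0% were called (170, or 5.35%, had an unadjusted p under 0.05). Of the members, 7 were tested, none was called and none had an unadjusted p under 0.05. Their median log2 fold change was -1.74, against 0.06 over all genes tested. In Notch1+/-, Snhg3 was at 0 in libraries 5 and 6, Snhg1, Snhg20 and Snord89 in library 5, and Snhg8 in library 6. These libraries had the fewest genes above 0 (3522 and 3264). Snord89 was also at 0 in Notch1+/- library 4 and WT library 11, and Snhg1 in WT library 2. Snhg8 had a log2 fold change of -1.60, although its Notch1+/- median (364.8 TPM) was above that of WT (281.2). Gas5 differed by 0.23 on the log2 scale (95% confidence interval -0.26 to 0.72), with all 5 Notch1+/- libraries above the WT median. Snhg20 differed by -2.80 (SE 1.68, limma adjusted p = 0.969), Snhg3 by -2.89 (SE 2.14) and Snord89 by -4.54 (SE 3.37), and the intervals of these 3 reached past 0. The exact permutation test could go down to p = 0.00794 and gave 0.222 for Snhg20.

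Between the mutants, 6281 genes had at least 1 TPM in 3 of the 13 libraries, and 0% were called (335, or 5.33%, had an unadjusted p under 0.05). Of the members, 13 were tested, none was called and none had an unadjusted p under 0.05, and their median log2 fold change was 0.53 against 0.35 over all genes. The log2 fold change of Notch1+/dTAD against Notch1+/- was 2.82 for Snhg8 (SE 1.46, 95% confidence interval -0.21 to 5.85, limma adjusted p = 0.941) and -2.67 for Snhg20 (SE 1.92, -6.65 to 1.30, adjusted p = 0.997). The low Snhg20 values of Notch1+/dTAD were thus not separated from those of Notch1+/- beyond the spread between mice. Gas5 differed by -0.35 (-0.91 to 0.21), and Snora81, tested in this comparison alone, by -1.77 (-7.96 to 4.43). The comparisons of the mutants with WT share the WT libraries.

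**Figure D4:**
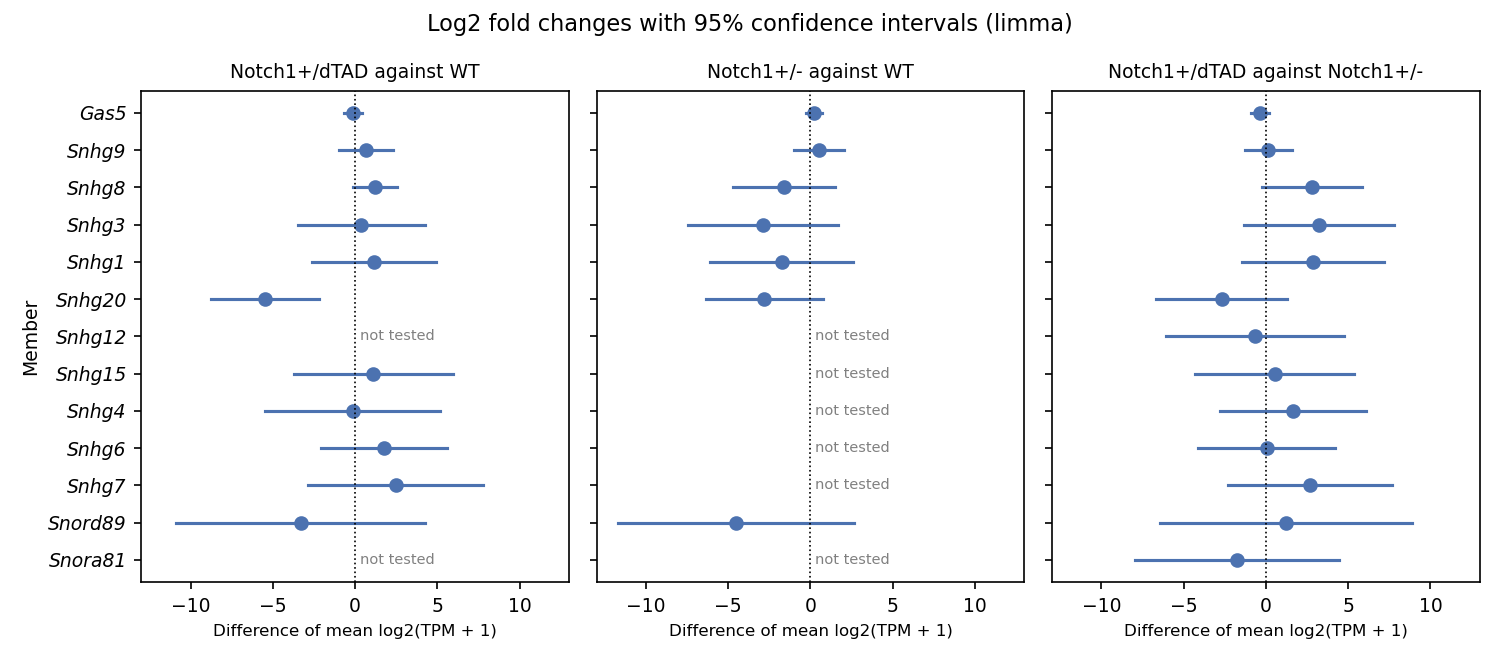
Difference of mean log2(TPM + 1) with its 95% confidence interval from limma for 13 members in the 3 comparisons, positive where the first-named group was higher. The Snhg20 interval against WT in the Notch1+/dTAD panel is the one that leaves out 0, and no member passed the adjustment over all genes.

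Levels of the genes for the proteins that carry snoRNAs differed within each list, of which the 2 highest are given. Nop58 and Fbl, the scaffold and the methyltransferase of the box C/D particle, had medians of 716.5 and 454.5 TPM, and Dkc1 and Nop10, the pseudouridine synthase and a partner in the box H/ACA particle, had medians of 161.2 and 137.1. Nhp2, also a box H/ACA core protein, was above 0 in 5 of 13 libraries, up to 245.2 TPM, with a median of 0. Assembly factors were lower, with medians of 79.74 TPM for the helicase Ruvbl1 and 25.95 for Znhit6. Of the nucleolar factors, Npm1 (1569) and Ncl (586.1) were highest, and of the decay factors Rbm8a (523.7) and Eif4a3 (454.1), both of the exon junction complex. In the list named for Cajal bodies the highest were Tcof1 (108.2), which encodes a nucleolar protein, and Nolc1 (0.3512).

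Between Notch1+/dTAD and WT, none of the genes tested was called in these lists, which were chosen with earlier results known. The median log2 fold change was 0.27 for the 4 box C/D core genes tested and 0.08 for 3 box H/ACA core genes, against 0.47 over all genes. It was 1.27 for 3 assembly factors and 1.15 for 3 genes of the Cajal body list, Tcof1 among them. For 11 decay factors it was -0.22, and for 13 nucleolar factors -0.18. In Notch1+/- against WT the same lists also had none called. Their medians ran from -0.52 (box H/ACA core, 3 tested) to 0.84 (Cajal body list, with the nucleolar Tcof1 as the 1 gene tested). Between the mutants none was called either, with medians from -0.22 (box C/D core, 4 tested) to 0.81 (assembly, 4 tested). The sum over the box C/D core genes was 1117 to 2157 TPM in WT, 1448 to 3432 in Notch1+/- and 1598 to 2701 in Notch1+/dTAD, and the groups overlapped.

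Protein-coding genes that contain an annotated snoRNA on their strand numbered 267 in the table, led by the ribosomal protein genes Rplp2 and Rpl13a. Between Notch1+/dTAD and WT, 134 were tested and none was called, and 5 had an unadjusted p under 0.05 with a higher and 2 with a lower level, where 4.14% and 0.866% of all genes did. The 2 lower genes were the ribosomal protein gene Rps12 (2782 to 4108 TPM against 5209 to 8840 in WT, log2 fold change -0.83, SE 0.25, limma adjusted p = 0.511) and the splicing factor gene Prpf39 (0 to 2.358 against 12.77 to 58.85, log2 fold change -3.96, SE 1.70, adjusted p = 0.943). Both were without overlap, as 0.739% of all genes were in this direction. The lowest Rps12 value of all 13 libraries, 1244.1 TPM, was in Notch1+/-. The higher genes with the smallest p were Lpp (3.982 to 6.978 against 0 to 0.525 TPM, without overlap, as 2.39% of all genes were in this direction) and Rps2 (459.2 to 984.1 against 33.4 to 798.2). Rps12 hosts Snora33, which was at 0 in every library.

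Prpf39 was also below every WT library in Notch1+/- (0 to 3.272 TPM, log2 fold change -4.39, SE 1.17, limma adjusted p = 0.507), in a comparison that shares the WT libraries. Such a position, lower without overlap, was held by 0.378% of all genes tested there, and the reverse by 0.409%. Of the 114 snoRNA-containing coding genes tested there none was called, and 1 was higher and 5 were lower at an unadjusted p under 0.05, as were 2.67% of all genes in each direction. Among the others with the smallest p were Ep400 (lower, limma unadjusted p = 0.0106) and Rabggtb (higher, limma unadjusted p = 0.0658). Rabggtb was thus not the 1 higher gene counted. Between the mutants 149 were tested and none was called, with 8 higher and none lower in Notch1+/dTAD at an unadjusted p under 0.05, where 4.09% and 1.24% of all genes were. Sf3b4 (46.87 to 121.9 TPM in Notch1+/dTAD against 0 to 7.279 in Notch1+/-, adjusted p = 0.932) did not overlap, as 2.44% of all genes did not in this direction and 0.621% in the other. The other genes with the smallest p, 2410002F23Rik, Iars and Cep295, overlapped between the mutants.

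The cells carried some of their sort markers: Flt3 (CD135) was above 0 in all 13 libraries (5.21 to 282.5 TPM), Il7r (CD127) in 12, Kit in 8 and Ly6a (Sca1) in 5. Dntt and Ly6d, lymphoid priming genes, had medians of 4112 and 1418 TPM. Summed markers of myeloid cells ran from 278.5 to 2066 TPM in WT, 8.842 to 1257 in Notch1+/- and 271.9 to 1715 in Notch1+/dTAD, and of B cells from 4.954 to 897.3, 14.47 to 1839 and 79.53 to 1555, with Ms4a1 at 0 throughout. The medians in the same order were 630.4, 416.1 and 1614 TPM for myeloid and 572.9, 243 and 1008 for B cell markers. Between the mutants all 6 myeloid genes tested were higher in Notch1+/dTAD (median log2 fold change 2.64, against 0.35 over all genes). Of these 6, 2 had an unadjusted p under 0.05 (limma), where 4.09% of all genes did. Against WT, 3 were higher and 1 lower in Notch1+/dTAD, and all 4 tested were lower in Notch1+/-. Summed T and NK markers ran from 0 to 1309 TPM in WT, 0 to 36.66 in Notch1+/- and 0 to 261.8 in Notch1+/dTAD. Of these 8 markers 5 were at 0 in every library (Cd3e, Cd3g, Cd8a, Klrb1c and Ncr1), while Nkg7, a granule gene of NK and cytotoxic T cells, reached 1122 TPM in WT library 10, 261.8 in Notch1+/dTAD library 9 and 36.66 in Notch1+/- library 4, and Cd4 reached 187.3 and 105.6 in WT libraries 10 and 2. Of 8 erythroid markers 7 were at 0 in every library, with only Hba-a1 above 0 (up to 17.59 TPM). The part of these cells in the levels above was not tested. None of the genes of these lists or of the 8 genes used by every cell was called in any of the 3 comparisons.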

How the data were processed

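CLPs from 13 mice were sequenced as strand-specific 3′ libraries, prepared in 1 batch per the labels. After trimming and STAR alignment (mm10), the authors deposited TPM values, in which transcript abundance is scaled to gene length and library total. There were 2 tables, which hold the same 5 WT columns and 1 mutant each. The tool, annotation, gene lengths and filter behind the TPM are not given in the sources used here. Read counts and depth are unknown, so precision was judged from the spread between mice, and a TPM of 0 has no limit.

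TPM were summed over members, and compared as log2(TPM + 1) in R 4.3.3 with limma 3.58.1 (lmFit, eBayes with trend, 2-sided). Genes were tested with 1 TPM or more in 3 libraries (5 for Notch1+/- against WT), and the mutants were compared in a model of all 13 libraries. Exact permutation tests covered every gene tested. The pseudocount lowers the fold changes of low genes. Tests were tried on simulated data. Positions came from GENCODE M21, with 134 of 136 members matched, and promoters from RefSeq (GRCm38.p6). Exon lengths were found for 98.3% of genes.

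The members, lists and rules were chosen with earlier results of these data known. Named genes were members with 1 TPM in at least 3 libraries, any snoRNA above 0, and, in the lists, the 2 smallest p in each direction and the 2 highest medians. Snhg5 and the genes at 0 or sharing a locus with a member were named after their values were seen. Lists covered box C/D and box H/ACA core proteins, assembly, Cajal body, decay and nucleolar factors, coding snoRNA hosts, sort and lymphoid priming genes, B, T and NK, myeloid and erythroid markers, and genes used by every cell. The position of 1 snoRNA and the values of 1 coding host gene that the rule names are not reported here.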

Additional observations from a re-analysis of the deposited data

Results flagged for a closer look

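In each group of 5 libraries with a member above 0, the gap between the highest or lowest library and its nearest neighbor was divided by the whole range, and a ratio above Dixon's critical value of 0.71 was noted. This held for 17 of 34 groups. In 10 of the 17 a single library was above 0, which fixes the ratio at 1. The critical value is passed by chance in about 1 in 20 groups of normally distributed values, a rate that does not apply to groups made mostly of zeros, so the number of such groups was not read as an excess. The cause of these values was not tested.

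Among host genes in WT, library 1 stood apart for Snhg5 (213.9 TPM), Snhg6 (58.95) and Snhg15 (211.6), and library 11 for Snhg7 (482.5) and Snhg12 (537.8). Library 11 was also far below the other WT libraries for Snhg20, at 13.92 TPM against 169.3 to 230.1. In Notch1+/-, library 12 stood apart for Snhg1 (773.2) and Snhg12 (449.3), library 13 for Snhg4 (10.91), Snhg5 (280.4) and Snhg15 (254), and library 4 for Snhg7 (233.2). Among snoRNAs, the single values were Snord87 in WT library 2 (5633.4) and, in Notch1+/-, Snord55 (59351.5) and Snord104 (653.2) in library 6, Snord15a in library 12 (11340.0) and Snora70 in library 13 (302.4). Library 13 had the most genes above 0 of all libraries (6326) and library 6 the fewest (3264).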

How the results depend on the processing

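No paired analysis was possible because no pairing of mice between genotypes is given in the sources used here. No member was called under any alternative (smallest adjusted p 0.157, limma). Without the trend in eBayes, 15, 2 and 3 genes of the whole table were called in Notch1+/dTAD against WT, Notch1+/- against WT and between the mutants, none of them members. The cause was not tested. The difference in median share between Notch1+/dTAD and WT (-1.81 percentage points, 4.37% against 6.19%) was -0.01 with host genes alone. Of the TPM beyond the 100 highest genes it was 0.01, but there the medians were only 0.440% and 0.435%. The difference was -1.92 without Snhg9, the highest member, and -2.84 with means in place of medians. In alternatives added after the data were seen, it was 0.56 without Snord89 and -0.32 with TPM times exon length. The latter is on a smaller scale, with medians of 0.861% in Notch1+/dTAD and 1.18% in WT. For the share of all TPM, leaving out each library in turn gave -3.16 to -1.72. The Notch1+/- share minus WT was 0.44 (-1.38 to 0.79 on leaving out libraries), and Notch1+/dTAD minus Notch1+/- was -2.25 (-2.6 to -0.44). With means in place of medians they were -0.67 and -2.17, and with host genes alone -0.12 and 0.11, in that order.

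In Notch1+/dTAD against WT, the log2 fold change reversed for Snhg3 with a pseudocount of 10 (-0.03) or quantile normalization (-0.01). For Snhg4 it reversed with a pseudocount of 10 (0.12) or a term that set libraries 10 to 14 apart from 1 to 9 (0.09). Between the mutants, Snhg6 reversed with a pseudocount of 10 (-0.09) or quantile normalization (-0.03). Quantile normalization moved the median of all genes in Notch1+/dTAD against WT from 0.47 to -0.02 and that of the members tested from 0.68 to 0.47. Leaving out each library in turn gave ranges that crossed 0 in Notch1+/dTAD against WT for Gas5 (-0.27 to 0.01), Snhg1 (-0.47 to 1.75), Snhg15 (-1.18 to 2.58), Snhg3 (-1.33 to 1.45), Snhg4 (-2.75 to 1.15), Snhg9 (-0.12 to 1.15) and Snord89 (-6.4 to 1.22). In Notch1+/- against WT they crossed 0 for Snhg8 (-2.18 to 0.14) and Snhg9 (-0.28 to 0.99). Between the mutants they did so for Snhg12 (-3.29 to 0.71), Snhg15 (-1.75 to 1.98), Snhg4 (-0.96 to 2.95), Snhg6 (-0.77 to 1.54), Snhg9 (-0.15 to 0.54) and Snord89 (-1.4 to 5.76).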
